A study of Mus musculus with 12 samples.

Results

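The MAVS dependence of the response to MPS1 inhibition was measured as an interaction, gene by gene. For each gene the change under the inhibitor in MAVS-knockout tumours was subtracted from the change under the inhibitor in MAVS-reconstituted tumours, on the log2 scale. A positive value therefore says that the inhibitor moved the gene further up, or less far down, when the injected cells carried MAVS again. All 12 libraries of the series entered the contrast, and 17885 of the 45777 genes in the table passed the filter on low counts and were tested.

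RNA was read from tumours that 393P, a mouse lung cancer cell line, formed under the skin of male 129S2/SvPasCrl mice aged 8 weeks at injection. The injected cells were labelled MAVS knockout (titled Luc) or MAVS reconstituted (titled MAVS), and the mice received control treatment (titled Veh) or 5 mg/kg of the MPS1 inhibitor BAY-1217389 (titled MPS1i), 2 times daily for 2 days. Tumours were taken on the following day. The 4 groups of 3 libraries are called here knockout control, knockout inhibitor, reconstituted control and reconstituted inhibitor. No group held cells with an unedited Mavs gene by its label. The construct that restored MAVS, whether each line was a clone, and what Luc stands for are left unstated by the labels. Any other difference between the 2 injected cell populations goes with the genotype and cannot be told apart from MAVS itself. The mice carry no genotype label of their own, so host cells in a tumour piece add their own transcripts in every group. The labels do not say that each library came from a separate animal, and the p-values then measure the spread between these samples, which may be technical.

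MAVS sits on the outer mitochondrial membrane and relays signals from RIG-I and MDA5, sensors of double-stranded RNA in the cytosol, to the kinases and transcription factors that switch on type I interferon and NF-kB target genes. MPS1, encoded by Ttk, is the kinase that starts the spindle assembly checkpoint. When it is blocked, cells leave mitosis with missegregated chromosomes and can form micronuclei, and nucleic acids reaching the cytosol from them can engage innate sensors. Interferon made in a tumour raises antigen presentation genes and chemokines that attract T cells and natural killer (NK) cells.

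Library totals ran from 52983715 to 69108411 counts. Values are given as CPM, the usual depth-scaled count, here with TMM library factors. On the first principal component, which held 28.5% of the variance, a single library stood apart. Reconstituted inhibitor replicate 1 lay at -102.7 there, and the other 11 lay between -28.67 and 48.6. The SD of the log2 difference between that library and replicate 3 of its group was 0.966, against 0.59 to 0.799 for the other 11 replicate pairs. Skeletal muscle genes, a sign of surrounding tissue in the piece, took 0.3156% of its counts, and 0.0004891% to 0.1068% elsewhere. Replicate 3 of that group was the lowest on the second component, which held 14.7% of the variance, at -52.02. Reconstituted control replicate 2 came next at -40.64. The Mavs gene itself, which checks the labels, was read at 40.5, 42.5 and 45.7 CPM in the knockout controls, 43.5, 39.4 and 41 CPM in the knockout inhibitor group, 85.1, 68.9 and 59.1 CPM in the reconstituted controls and 50.1, 53.8 and 62.8 CPM in the reconstituted inhibitor group. The 6 reconstituted libraries were the 6 highest. The counts mix the edited gene, the introduced copy and host transcripts. Mavs had a log2 interaction of -0.30 ± 0.18 (SE) (edgeR adjusted p = 0.314). Ttk, the target of the inhibitor, stood at -0.34 (edgeR adjusted p = 0.27).

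No gene passed the test of the interaction. Among 17885 genes tested with edgeR's quasi-likelihood test, 0 (0%) were called at an adjusted p below 0.05, and the smallest adjusted p was 0.144. At an unadjusted p below 0.05 there were 2438 genes with a positive value (13.6%) and 1983 with a negative one (11.1%). Limma-voom also called 0. DESeq2 called 1345, of which 819 were positive (4.58%) and 526 negative (2.94%). The count from edgeR turned on 1 library: without reconstituted inhibitor replicate 3 it was 4005, with 1963 positive (10.7% of the 18321 genes then tested) and 2042 negative (11.1%). Leaving out any other library gave 0, except reconstituted control replicate 3, without which 1 gene was called. Values below are thus estimates with their standard errors (SE), and no gene is said to have risen or fallen on the edgeR test. Each gene is called positive or negative by the sign of its interaction, and the calls by DESeq2 are given beside it.

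The interaction was made up mostly of differences in reconstituted tumours. Over the 12934 genes whose mean log2 CPM was 1 or more, the median absolute log2 difference between inhibitor and control was 0.25 in reconstituted tumours and 0.08 in knockout tumours. It was the larger of the 2 in reconstituted tumours for 10630 of these genes. In reconstituted tumours alone edgeR called 0 genes for the inhibitor (0%, smallest adjusted p = 0.0729), with 3140 higher (17.6%) and 2687 lower (15%) at an unadjusted p below 0.05, and DESeq2 called 2092 higher (11.7%) and 1529 lower (8.55%). In knockout tumours edgeR called 0 genes (0%), with 117 higher (0.654%) and 188 lower (1.05%) at an unadjusted p below 0.05, and DESeq2 called 2 higher (0.0112%) and 1 lower (0.00559%). The reconstituted inhibitor group also held the replicate pairs that differed most, as given above, and the part of that spread in the larger differences was not tested. No test was made of the difference between these counts.

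**Figure D1:**
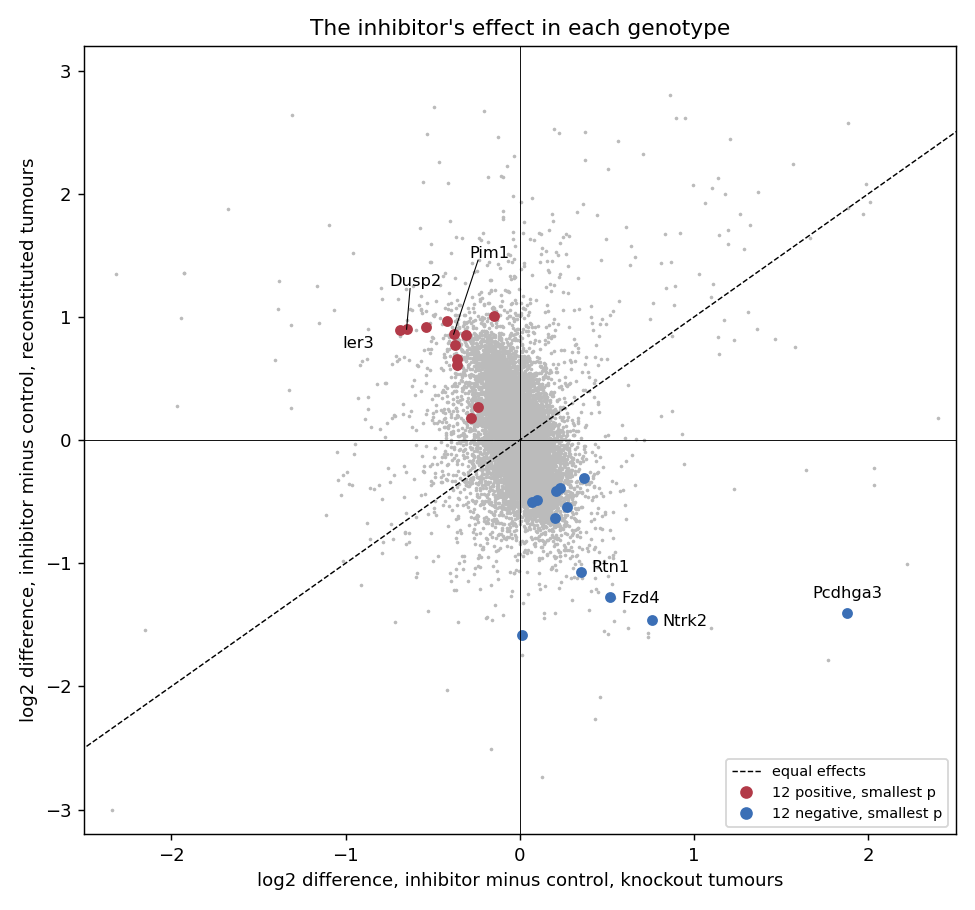
Each grey point is 1 of 12934 genes whose mean log2 CPM was 1 or more, with the log2 difference between inhibitor and control in knockout tumours on the x axis and in reconstituted tumours on the y axis, and 5 genes lie outside the axes. The distance above or below the dashed line of equal effects is the interaction; the 12 positive genes with the smallest p (red) lie to the upper left and the 12 negative ones (blue) to the lower right.

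The genes with the smallest p on the positive side had opposite signs in the 2 genotypes. Predicted genes and genes with a mean log2 CPM below 1 were left out of this choice. All 12 had a positive log2 difference under the inhibitor in reconstituted tumours and a negative one in knockout tumours, and each had an edgeR adjusted p of 0.144. They were picked by the interaction itself, so this describes the choice and is no test. Ier3 (gene ID 15937, chromosome 17, 35821713 to 35822911 on GRCm38.p6), an immediate early gene that guards cells against death signals and damps NF-kB, was at 166, 167 and 108 CPM in the knockout controls, 69, 110 and 93.3 CPM in the knockout inhibitor group, 45.7, 44.6 and 43.9 CPM in the reconstituted controls and 99.5, 84.6 and 65 CPM in the reconstituted inhibitor group. The reconstituted groups did not overlap, and their 3 controls lay close together, while the knockout groups overlapped at their edges. The log2 interaction was 1.59 ± 0.29 (SE), from 0.89 in reconstituted and -0.69 in knockout tumours (DESeq2 adjusted p = 0.00034).

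Pim1, a survival kinase induced through JAK-STAT signalling, was read at 77.7, 67.7 and 56.1 CPM in the knockout controls, 44.1, 60.8 and 50 CPM in the knockout inhibitor group, 41.6, 39.7 and 54.9 CPM in the reconstituted controls and 97.6, 68.8 and 80.9 CPM in the reconstituted inhibitor group. Its reconstituted inhibitor libraries lay above the controls of that genotype without overlap, and the knockout groups overlapped. This gave a log2 interaction of 1.24 ± 0.25 (SE) (DESeq2 adjusted p = 0.00341). Dusp2, a phosphatase that switches off MAP kinases in activated immune cells, had 3.41, 2.66 and 4.03 CPM in the knockout controls, 2.18, 2.22 and 2.03 CPM in the knockout inhibitor group, 1.71, 2.34 and 2.74 CPM in the reconstituted controls and 4.74, 4.5 and 3.46 CPM in the reconstituted inhibitor group. Within each genotype its groups did not overlap, in opposite directions, for a log2 interaction of 1.55 ± 0.31 (SE) (DESeq2 adjusted p = 0.00341). Prss22, a tryptase-like serine protease of airway epithelium, was 1.39, with 0.97 in reconstituted and -0.42 in knockout tumours.

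The other 8 positive genes ranged from 0.47 to 1.45. Tmem51, a membrane protein gene, stood at 1.45. Mafg, a small Maf factor that pairs with NRF2, stood at 0.47 and Rfx1, a DNA-binding factor of the RFX family, at 0.51. Fam173a, a mitochondrial lysine methyltransferase gene, was at 1.16 and Bola1, a mitochondrial protein of iron-sulphur chemistry, at 1.14. AI413582 (1.16), Comtd1 (1.02) and Tmem222 (0.98) completed the set. DESeq2 called all 12 of these genes positive. In the comparison of reconstituted with knockout control tumours, where edgeR called 25 genes (0.14%) and which shares its libraries with the interaction, Ier3 (-1.71, adjusted p = 0.0137) and Prss22 (-1.22, adjusted p = 0.0466) were lower in reconstituted tumours. Without knockout control replicate 2, 0 genes were called there (smallest edgeR adjusted p = 0.0632).

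Under the same conditions, the 12 negative genes with the smallest p showed the mirror image. Each had a negative log2 difference under the inhibitor in reconstituted tumours and a positive one in knockout tumours, again at an edgeR adjusted p of 0.144 each, and again as a product of how they were picked. Ntrk2 (gene ID 18212, chromosome 13, 58806472 to 59133970), the receptor for the neurotrophin BDNF, was at 2.25, 1.79 and 1.86 CPM in the knockout controls, 3.26, 3.55 and 3.2 CPM in the knockout inhibitor group, 3.62, 4.68 and 2.43 CPM in the reconstituted controls and 1.03, 1.33 and 1.55 CPM in the reconstituted inhibitor group. Knockout tumours had more under the inhibitor and reconstituted tumours less, with no overlap within either genotype. The log2 interaction was -2.22 ± 0.35 (SE), from -1.46 in reconstituted and 0.76 in knockout tumours (DESeq2 adjusted p = 2.07e-05).

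Pcdhga3, a gamma protocadherin that mediates contact between cells, was read at 1.68, 1.65 and 2.37 CPM in the knockout controls, 4.27, 9.31 and 7.42 CPM in the knockout inhibitor group, 1.54, 2.6 and 2.79 CPM in the reconstituted controls and 0.474, 1.12 and 1.01 CPM in the reconstituted inhibitor group. This was the widest interaction of the 24 genes, -3.29 ± 0.53 (SE), with all 3 knockout inhibitor libraries above all other libraries (DESeq2 adjusted p = 4.14e-06). Gamma protocadherin transcripts share their last exons, so how reads were split among them is uncertain. Fzd4, a Wnt and norrin receptor of blood vessels and other cells, had 3.12, 2.78 and 3.21 CPM in the knockout controls, 5.46, 4.2 and 3.41 CPM in the knockout inhibitor group, 4.07, 3.66 and 4.2 CPM in the reconstituted controls and 1.17, 1.51 and 2.25 CPM in the reconstituted inhibitor group. Its knockout libraries were higher under the inhibitor and its reconstituted libraries lower, without overlap, for a log2 interaction of -1.79 ± 0.34 (SE) (DESeq2 adjusted p = 0.00125). Rtn1, a reticulon of neuroendocrine cells, followed the same order at 2.7, 2.65 and 2.55 CPM in the knockout controls, 3.63, 3.57 and 2.88 CPM in the knockout inhibitor group, 3.57, 4.09 and 3.7 CPM in the reconstituted controls and 1.62, 1.56 and 2.22 CPM in the reconstituted inhibitor group. Its log2 interaction was -1.42 ± 0.25 (SE) (DESeq2 adjusted p = 0.00034).

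Of the other 8, Pcdh17, a protocadherin, stood at -1.59. Suv39h2, a histone H3 lysine 9 methyltransferase, was at -0.68 and Arl13b, a small GTPase of the primary cilium, at -0.82. Mak16 (-0.62) and Tsr1 (-0.61) serve ribosome assembly, and Slc25a32 (-0.59) carries folate into mitochondria. Syde2, a GTPase-activating protein, was at -0.82 and Tmem64, a membrane protein gene, at -0.58. DESeq2 called all 12 negative. In the comparison of reconstituted with knockout tumours under the inhibitor, where edgeR called 116 of 17885 genes (0.649%), Ntrk2 (-1.35, adjusted p = 0.0377), Pcdhga3 (-3.00, adjusted p = 0.0147) and Fzd4 (-1.40, adjusted p = 0.0321) were lower in reconstituted tumours. That comparison shares its libraries with the interaction, and its count turned on single libraries. It was 0 without knockout inhibitor replicate 3 (smallest edgeR adjusted p = 0.0704), 2, 5 and 16 without knockout inhibitor replicate 1, knockout inhibitor replicate 2 and reconstituted inhibitor replicate 1, and 2816 without reconstituted inhibitor replicate 3.

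**Figure D2:**
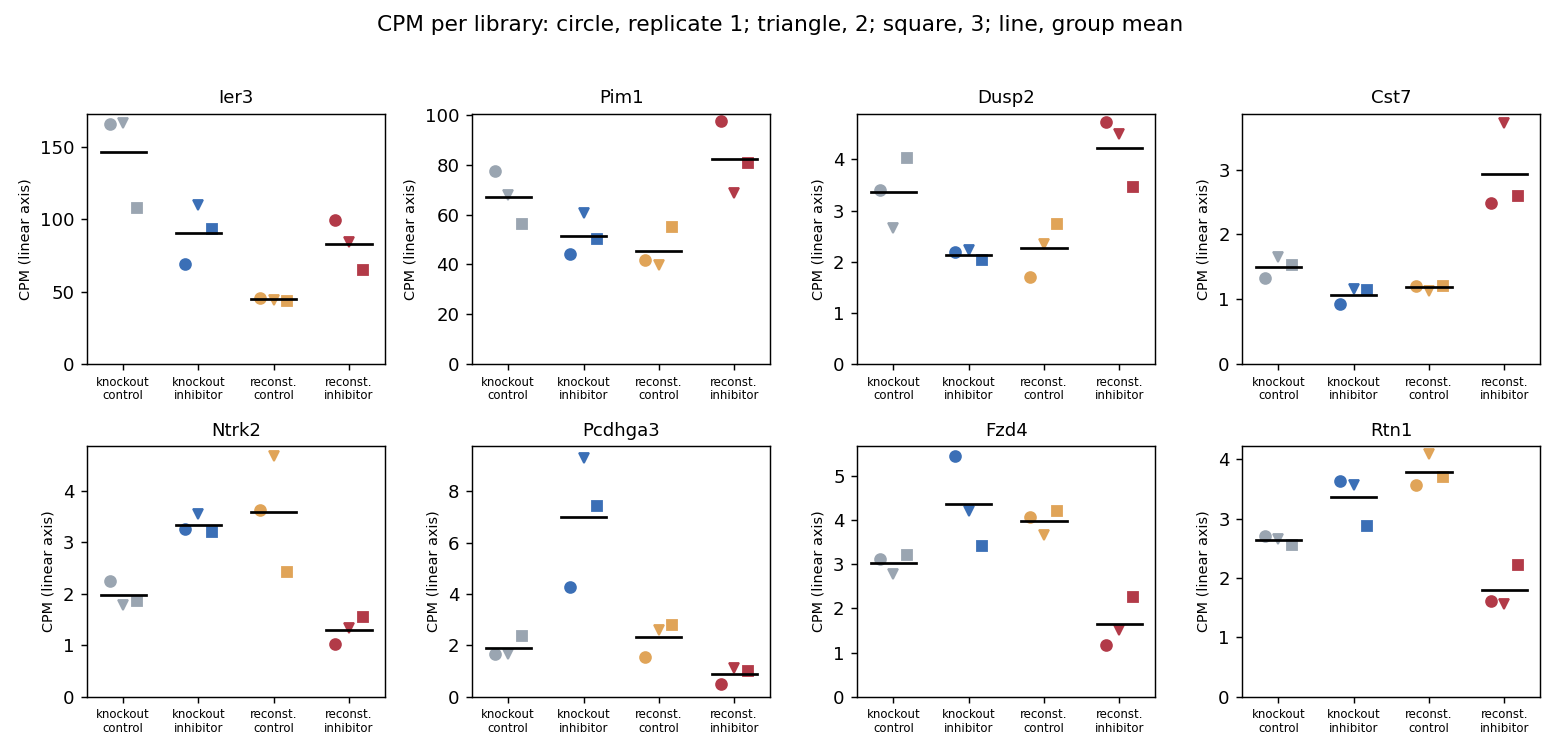
CPM of 4 genes with a positive interaction (top) and 4 with a negative one (bottom), 1 point per library, 3 libraries per group, with the group mean as a line and the y axis linear from 0. Cst7 stood at 2.49 to 3.72 CPM in the reconstituted inhibitor group and at 0.922 to 1.65 CPM in the other 9 libraries.

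Sensors and relay proteins of the RNA-sensing route lay close to the genes as a whole. Of 17 genes for RNA sensors and the MAVS relay, 11 had a positive interaction and 6 a negative one, with a median of 0.13 against 0.00459 over all genes tested. At an unadjusted p below 0.05 there were 1 positive and 2 negative genes, against 13.6% and 11.1% of all genes. DESeq2 called 0, against 4.58% positive and 2.94% negative of all genes. The median was 0.03 without reconstituted control replicate 2. Dhx58 (LGP2), a sensor that is itself induced by interferon, was at 0.96 ± 0.45 (SE). Tank (-0.45) and Traf3 (-0.44), adaptors between MAVS and the kinase TBK1, were negative, and Traf2 (0.25), a ubiquitin ligase of the same relay, was positive. Ifnb1 (interferon beta) was counted 0 to 3 times in a library and was not tested. In the DNA-sensing list, 7 of 11 genes were positive with a median of 0.42, which was 0.24 without reconstituted inhibitor replicate 1. At an unadjusted p below 0.05, 3 were positive and 1 negative, against 13.6% and 11.1% of all genes. Trex1, the exonuclease that destroys cytosolic DNA, was read at 15.9, 8.43 and 9.01 CPM in the knockout controls, 6.05, 13.7 and 9.71 CPM in the knockout inhibitor group, 9.16, 12.2 and 20.1 CPM in the reconstituted controls and 55, 31.6 and 26.3 CPM in the reconstituted inhibitor group. The reconstituted inhibitor libraries were the 3 highest of the 12, and the log2 interaction was 1.62 ± 0.56 (SE) (edgeR adjusted p = 0.145, DESeq2 adjusted p = 0.039). Tmem173, which encodes STING, was at 0.70. Enpp1 was negative at -0.31 ± 0.13 (SE), and at 0.04 with each library's trend on GC content and transcript length removed.

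Interferon-stimulated genes leaned to the positive side as a group. Of 50 type I interferon-stimulated genes, 47 had a positive interaction against 50.3% of all genes, and the median was 0.63. Few had a small p: 4 of the 50 were positive at an unadjusted p below 0.05, a share below the 13.6% of all genes, and 1 was called by DESeq2. Isg15, a ubiquitin-like modifier, was at 20.1, 6.59 and 9.17 CPM in the knockout controls, 6.56, 15.1 and 10.8 CPM in the knockout inhibitor group, 38.2, 23.3 and 63.9 CPM in the reconstituted controls and 149, 76.9 and 65.8 CPM in the reconstituted inhibitor group. Reconstituted tumours held more than knockout tumours under either treatment, and the reconstituted inhibitor libraries were the 3 highest. Isg15 had a log2 interaction of 1.36 ± 0.70 (SE) (edgeR adjusted p = 0.242). Ifit1, which binds foreign RNA ends, had 9.6, 2.53 and 4.03 CPM in the knockout controls, 4.41, 6.07 and 3.39 CPM in the knockout inhibitor group, 41.5, 26.4 and 70.3 CPM in the reconstituted controls and 95.2, 56.6 and 56.5 CPM in the reconstituted inhibitor group. The inhibitor and control libraries of reconstituted tumours overlapped, and the log2 interaction was 0.81 ± 0.67 (SE) (edgeR adjusted p = 0.46).

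The members with the smallest p were Ifitm3 at 1.37 ± 0.44 (SE), which blocks virus entry and was the member called by DESeq2 (adjusted p = 0.0332), Oasl1 at 1.62 ± 0.65 (SE), Bst2 (tetherin, which holds budding virus) at 1.62 ± 0.66 (SE) and Parp10, an ADP-ribosyltransferase, at 0.92 ± 0.40 (SE). Over the list the median log2 difference between genotypes was 1.24 in control tumours and 1.94 under the inhibitor. The median interaction was 0.23 without knockout control replicate 1 and 0.99 without reconstituted control replicate 3. It was 0.48 without reconstituted inhibitor replicate 1. The 50 genes share the same 12 libraries and are not independent replicates. Within groups, the mean log2 CPM of the list had an SD of 0.444 between libraries.

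Genes of the interferon-gamma response had a median interaction of 1.29, the highest of the 36 lists with all libraries in the fit, and 26 of 27 were positive. Chemokines stood above them without reconstituted inhibitor replicate 3 (1.24 against 1.08), without knockout control replicate 1 (1.16 against 0.68) and without reconstituted control replicate 2 (1.04 against 0.95). Skeletal muscle markers did so without reconstituted control replicate 1 (2.04 against 1.03) and without knockout inhibitor replicate 1 (1.15 against 1.03). The muscle markers also stood above the interferon-gamma list without reconstituted inhibitor replicate 3 (1.15 against 1.08). At an unadjusted p below 0.05, 7 of 27 were positive against 13.6% of all genes, and 0 were called by DESeq2 against 4.58%. Socs1, the feedback inhibitor of JAK kinases, was read at 34.5, 19 and 18.8 CPM in the knockout controls, 13.1, 30.7 and 23.8 CPM in the knockout inhibitor group, 11.9, 13.4 and 40.7 CPM in the reconstituted controls and 158, 49 and 83.6 CPM in the reconstituted inhibitor group. The 3 reconstituted inhibitor libraries were the highest of the 12 and spread over a wide range. Its log2 interaction was 2.23 ± 0.77 (SE) (edgeR adjusted p = 0.145). Ido1, which degrades tryptophan, was at 3.02 ± 1.11 (SE), Nos2, the inducible nitric oxide synthase, at 2.18 ± 0.70 (SE), and the monocyte chemokine gene Ccl8 at 1.94 ± 0.65 (SE). Ifng itself, made by T cells and NK cells, had 1.05, 0.793 and 0.634 CPM in the knockout controls, 0.4, 1.55 and 0.891 CPM in the knockout inhibitor group, 0.502, 0.225 and 2.44 CPM in the reconstituted controls and 10.4, 3.26 and 4.61 CPM in the reconstituted inhibitor group. Its reconstituted inhibitor libraries again were the 3 highest, for a log2 interaction of 2.33 ± 1.09 (SE) (edgeR adjusted p = 0.211). The list median ran from 0.68 without knockout control replicate 1 to 2.19 without reconstituted control replicate 3. Within groups, the mean log2 CPM of the list had an SD of 0.775 between libraries. Counts of whole tumour pieces do not tell fewer cells of a type from less RNA per cell.

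The promoters of 4 of these genes are shown because interferon acts through short DNA elements close to the start of transcription. Each window holds 250 bases before and 50 after the start, from RefSeq on GRCm38.p6, 5′ to 3′ on the strand of the gene. Capitals mark matches on either strand to the core of the interferon-stimulated response element, GAAANNGAAA, which interferon regulatory factors bind. These 4 genes were chosen after their values were seen. Isg15 lies at chr4:156200769-156201068 on the minus strand, Cxcl10 at chr5:92348840-92349139 on the minus strand, Socs1 at chr16:10785487-10785786 on the minus strand and H2-T23 at chr17:36032652-36032951 on the minus strand.
Isg15: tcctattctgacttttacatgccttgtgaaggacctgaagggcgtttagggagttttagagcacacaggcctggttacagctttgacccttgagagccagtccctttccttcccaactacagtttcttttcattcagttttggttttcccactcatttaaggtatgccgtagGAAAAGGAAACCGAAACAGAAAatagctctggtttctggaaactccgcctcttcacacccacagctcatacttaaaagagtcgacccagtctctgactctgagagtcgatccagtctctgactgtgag
Cxcl10: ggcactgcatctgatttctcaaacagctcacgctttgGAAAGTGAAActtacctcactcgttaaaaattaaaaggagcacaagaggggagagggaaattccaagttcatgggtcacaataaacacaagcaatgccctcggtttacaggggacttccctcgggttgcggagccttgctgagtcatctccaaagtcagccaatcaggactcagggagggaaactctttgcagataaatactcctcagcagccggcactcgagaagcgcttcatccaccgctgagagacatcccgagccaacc
Socs1: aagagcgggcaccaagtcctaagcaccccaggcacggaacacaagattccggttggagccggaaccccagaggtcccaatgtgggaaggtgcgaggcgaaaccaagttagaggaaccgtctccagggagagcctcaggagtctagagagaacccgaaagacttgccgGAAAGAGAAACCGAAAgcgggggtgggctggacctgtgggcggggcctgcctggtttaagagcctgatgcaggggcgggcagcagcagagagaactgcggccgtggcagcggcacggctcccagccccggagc
H2-T23: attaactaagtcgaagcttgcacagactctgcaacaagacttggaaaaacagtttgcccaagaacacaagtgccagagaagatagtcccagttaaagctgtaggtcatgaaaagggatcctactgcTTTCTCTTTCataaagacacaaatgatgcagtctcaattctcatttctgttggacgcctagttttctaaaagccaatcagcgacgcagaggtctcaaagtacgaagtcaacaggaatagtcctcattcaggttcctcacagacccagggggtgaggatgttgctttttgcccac

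The Isg15 window held 3 matches in 1 overlapping run and the Socs1 window 2, also overlapping. The Cxcl10 and H2-T23 windows held 1 each, that of H2-T23 on the strand opposite to the gene. Of the 12990 tested genes with a promoter window in the table, 3.86% held the response element core. Among type I interferon-stimulated genes 20 of the 39 with a window held the core (51.3%). In the interferon-gamma response list 11 of 17 did (64.7%). MHC class I presentation genes had 5 of 20 (25%), and the chemokines 1 of 13 (7.69%). Cxcl10 is counted here in the interferon-gamma response list and not among the chemokines. Outside the immune lists, 1 of 26 hypoxia and glycolysis genes (3.85%) and 7 of 56 ribosomal protein genes (12.5%) held the core. The gamma-activated sequence, TTCNNNGAA, was in 9 of 17 interferon-gamma response genes (52.9%) and 7 of 39 type I genes (17.9%). It was in 2 of 20 class I genes (10%), 2 of 13 chemokines (15.4%) and 8.58% of all genes with a window. A match is a description of the letters in the window and not a measured binding site.

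**Figure D3:**
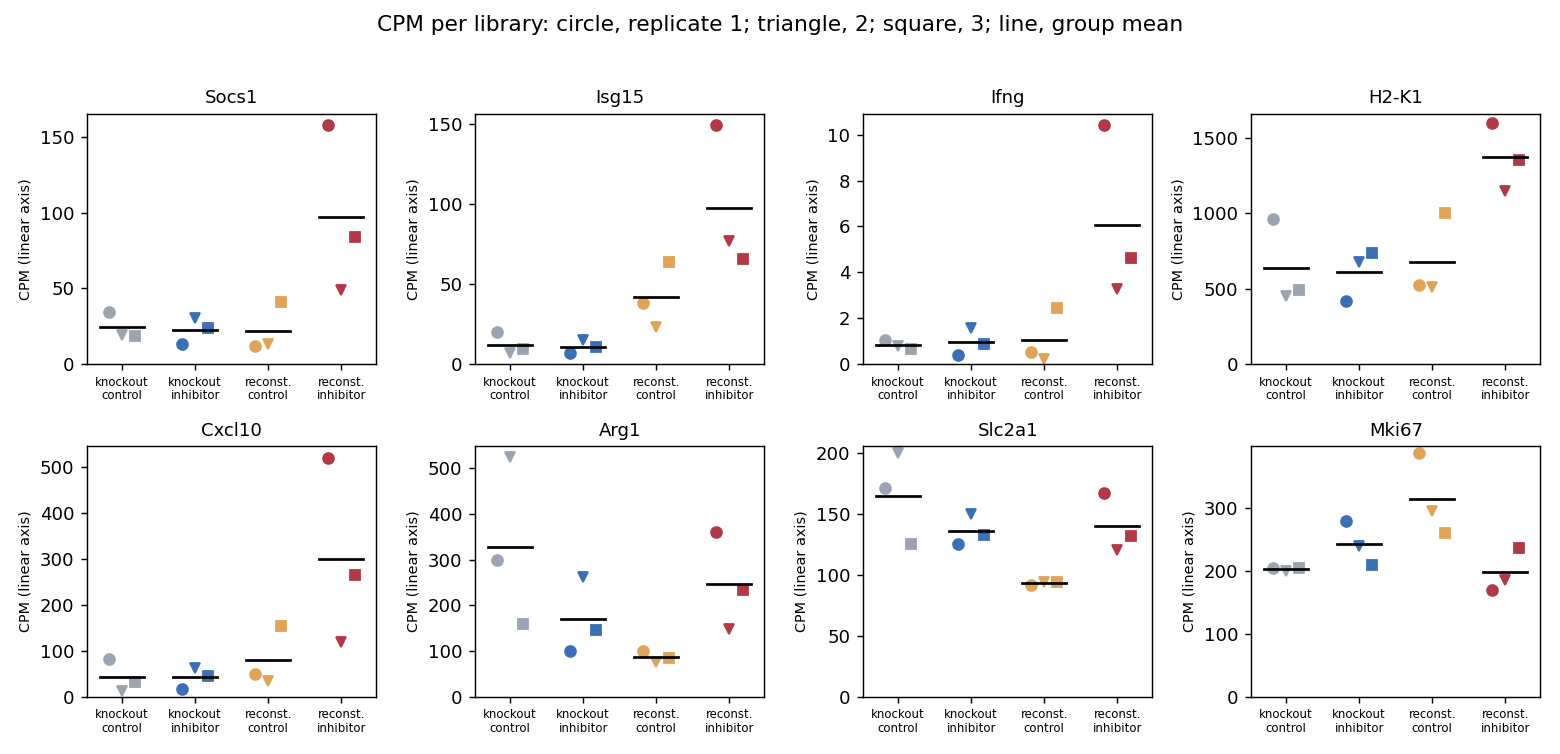
CPM of 8 genes of the interferon, antigen presentation, chemokine, macrophage, glycolysis and proliferation groups, 1 point per library, 3 libraries per group, with the group mean as a line and the y axis linear from 0. For Socs1, Isg15, Ifng and H2-K1 the 3 reconstituted inhibitor libraries are the 3 highest of the 12.

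Antigen presentation genes followed. Of 25 genes for MHC class I presentation, 24 were positive with a median of 1.03, and 10 were positive at an unadjusted p below 0.05 against 13.6% of all genes, but DESeq2 called 0. H2-K1, a classical class I heavy chain, was at 960, 453 and 490 CPM in the knockout controls, 418, 673 and 734 CPM in the knockout inhibitor group, 523, 513 and 999 CPM in the reconstituted controls and 1600, 1150 and 1350 CPM in the reconstituted inhibitor group. Again the reconstituted inhibitor libraries were the 3 highest, and the other groups overlapped. Its log2 interaction was 1.07 ± 0.48 (SE) (edgeR adjusted p = 0.198). The nonclassical gene H2-T23 stood at 1.47 ± 0.55 (SE), the immunoproteasome subunit gene Psmb10 at 1.56 ± 0.64 (SE) and the proteasome activator gene Psme2 at 1.14 ± 0.46 (SE). Class I heavy chain genes are close copies of one another, so their separate values are uncertain. Median values for class I without 1 library ran from 0.63 (knockout control replicate 1) to 1.36 (reconstituted control replicate 3). Of 11 class II presentation genes, 9 were positive with a median of 0.51, and 0.32 without knockout control replicate 1. Ifi30, a thiol reductase of the lysosome that opens antigens for class II loading, was at 0.76 ± 0.27 (SE) and the invariant chain gene Cd74 at 0.71 ± 0.35 (SE).

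Chemokines were the immune list with the most calls by DESeq2. Of 20 tested, 19 were positive with a median of 1.03, 8 were positive at an unadjusted p below 0.05 against 13.6% of all genes, and DESeq2 called 6 positive, against 4.58%. Ccl4, which draws T cells and monocytes, was at 1.56, 1.87 and 1.68 CPM in the knockout controls, 0.615, 2.09 and 1.36 CPM in the knockout inhibitor group, 1.18, 0.985 and 2.17 CPM in the reconstituted controls and 5.63, 3.9 and 3.98 CPM in the reconstituted inhibitor group. The reconstituted inhibitor libraries were the 3 highest, and the log2 interaction was 1.98 ± 0.57 (SE) (DESeq2 adjusted p = 0.0293). The monocyte chemokine genes Ccl7 (1.88 ± 0.58 (SE), DESeq2 adjusted p = 0.0278), Ccl12 (1.51 ± 0.45 (SE), 0.0286) and Ccl2 (1.31 ± 0.44 (SE), 0.0383) had the next smallest p. In Ccl7 the reconstituted controls held 28.3, 39 and 71.9 CPM and the inhibitor group 122, 112 and 91.4 CPM, while knockout tumours held 73.9, 81.3 and 31.2 and 24.6, 54.3 and 39.5 CPM with the order reversed in their means. Cxcl10, the ligand of CXCR3 on effector T cells, was read at 81.2, 13.1 and 31.8 CPM in the knockout controls, 17.7, 63.2 and 45.5 CPM in the knockout inhibitor group, 50.4, 34 and 153 CPM in the reconstituted controls and 520, 119 and 266 CPM in the reconstituted inhibitor group. Its libraries spread widely, with overlap in both genotypes, and the log2 interaction was 1.92 ± 1.08 (SE) (edgeR adjusted p = 0.283). Cxcl10 is counted in the interferon-gamma response list and not among these 20 chemokines. The median of the chemokine list was 0.61 without knockout control replicate 2 and 1.38 without knockout control replicate 3.

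NF-kB targets and inflammatory cytokines had 19 of 23 positive and a median of 0.38, with 5 positive and 1 negative at an unadjusted p below 0.05 (13.6% and 11.1% of all genes) and 0 called by DESeq2. Il1rn, the interleukin 1 receptor antagonist, was at 0.89 ± 0.34 (SE), the cytokine gene Lif at 0.78 ± 0.29 (SE) and Tnf at 1.08 ± 0.46 (SE), while Rel, an NF-kB subunit, was at -0.48 ± 0.18 (SE).

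Markers of lymphocytes were mostly positive, with medians that turned on 1 library. Of 20 cytotoxic lymphocyte and NK cell markers, 17 were positive with a median of 0.55, and 0.03 without knockout control replicate 1. At an unadjusted p below 0.05, 2 were positive and 1 negative, shares below the 13.6% and 11.1% of all genes, and DESeq2 called the 2 positive ones (4.58% of all genes). Cst7, the cystatin F of cytotoxic granules, was at 1.33, 1.65 and 1.53 CPM in the knockout controls, 0.922, 1.15 and 1.14 CPM in the knockout inhibitor group, 1.2, 1.13 and 1.2 CPM in the reconstituted controls and 2.49, 3.72 and 2.59 CPM in the reconstituted inhibitor group. All 3 reconstituted inhibitor libraries lay above the other 9. The log2 interaction was 1.81 ± 0.30 (SE), at an unadjusted p of 6.87e-05 (edgeR adjusted p = 0.144, DESeq2 adjusted p = 0.00034), and its lowest value with 1 library left out was 1.60. Nkg7, another granule gene, was at 1.96 ± 0.67 (SE) (DESeq2 adjusted p = 0.0429). Gzmb, granzyme B, was at 16.2, 5.04 and 8.76 CPM in the knockout controls, 6.9, 9.06 and 15 CPM in the knockout inhibitor group, 26.7, 34.7 and 41.4 CPM in the reconstituted controls and 51.1, 57.4 and 54.2 CPM in the reconstituted inhibitor group. Reconstituted tumours held more of it under either treatment, and the log2 interaction was 0.61 ± 0.52 (SE) (edgeR adjusted p = 0.476). The summed level of the 20 markers ran from 38.8 to 79.9 CPM in knockout controls and from 51.9 to 75.7 CPM in the knockout inhibitor group. It ran from 123 to 158 CPM in reconstituted controls and from 157 to 227 CPM in the reconstituted inhibitor group. Eomes, which enters this sum, was the negative marker at an unadjusted p below 0.05. It had 15.1, 14.4 and 18.1 CPM in the knockout controls and 19, 14.8 and 18.2 CPM in the knockout inhibitor group. Reconstituted controls had 19.9, 18.3 and 14.8 CPM and the reconstituted inhibitor group 13.7, 13.6 and 14.5 CPM. Eomes was thus read at 13.6 to 19.9 CPM over the 12 libraries, and Nkg7 at 0.809 to 7.24 CPM. Which cells gave the Eomes reads was not tested.

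T cell markers had 13 of 18 positive with a median of 0.34, which was 0.04 without knockout control replicate 1 and 0.76 without reconstituted control replicate 3. Cd3g, a chain of the T cell receptor complex, was at 1.52 ± 0.51 (SE) (DESeq2 adjusted p = 0.0492) and the adaptor gene Lat at 1.07 ± 0.41 (SE). Tcf7, a factor of naive and memory T cells, was at -0.48 ± 0.16 (SE) (DESeq2 adjusted p = 0.0437). Tcf7 was read at 7.78 to 12.5 CPM over the 12 libraries and Cd3g at 0.872 to 3.77 CPM. Which cells gave the Tcf7 reads was not tested. Cd8a, the coreceptor of cytotoxic T cells, was low, at 0.324, 0.101 and 0.0746 CPM in the knockout controls, 1.08, 0.4 and 0.664 CPM in the knockout inhibitor group, 0.173, 0.211 and 0.964 CPM in the reconstituted controls and 2.37, 1.07 and 1.04 CPM in the reconstituted inhibitor group. The inhibitor groups were higher in both genotypes, and its log2 interaction was -0.36 ± 1.01 (SE) (edgeR adjusted p = 0.849). The summed T cell markers were 37.8 to 49.2, 40.7 to 54.5, 40.5 to 62 and 53.4 to 74.2 CPM in the 4 groups in the order used above, and none of the 18 was at 0 in every library. Of 11 T cell checkpoint genes 9 were positive with a median of 0.60, and 4 were positive at an unadjusted p below 0.05 against 13.6% of all genes. Tnfrsf18 (GITR) was at 1.06 ± 0.34 (SE) (DESeq2 adjusted p = 0.0433), Pdcd1 (PD-1) at 1.10 ± 0.39 (SE) and Tigit at 0.81 ± 0.29 (SE). Tigit was read at 38.1 to 103 CPM over the 12 libraries and Pdcd1 at 0.934 to 3.83 CPM. Which cells gave the Tigit reads was not tested. The part of lymphocyte content in the values of interferon and antigen presentation genes was not tested.

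Macrophage markers had 17 of 18 positive with a median of 0.45. At an unadjusted p below 0.05, 9 of 18 were positive against 13.6% of all genes, and DESeq2 called 5 positive against 4.58%. Arg1, the arginase of macrophages in tumours and wounds, was at 298, 525 and 158 CPM in the knockout controls, 99.2, 262 and 145 CPM in the knockout inhibitor group, 99.2, 75.4 and 84.1 CPM in the reconstituted controls and 360, 147 and 233 CPM in the reconstituted inhibitor group. Its knockout controls were spread over a wide range and overlapped the knockout inhibitor libraries, and its reconstituted groups did not overlap. A log2 interaction of 2.47 ± 0.65 (SE) resulted (edgeR adjusted p = 0.144, DESeq2 adjusted p = 0.0308). The lipid receptor gene Trem2 stood at 1.27 ± 0.37 (SE), and the complement genes C1qc and C1qa at 1.12 ± 0.34 (SE) and 0.90 ± 0.31 (SE). Summed macrophage markers ran from 3230 to 4360 CPM in knockout controls, 2670 to 3580 CPM in the knockout inhibitor group, 2620 to 3200 CPM in reconstituted controls and 3230 to 4550 CPM in the reconstituted inhibitor group. The last 2 ranges did not overlap. The list median stayed between 0.43 and 0.57 with any library left out.

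Vessel, stroma and mesenchymal transition genes leaned to the negative side. Of 15 endothelial markers, 9 were negative with a median of -0.18, 4 were negative at an unadjusted p below 0.05 against 11.1% of all genes and DESeq2 called 3 negative against 2.94%. Cdh5, the cadherin of vessel walls, was at 49.7, 50.1 and 47.2 CPM in the knockout controls, 46.9, 46.4 and 44 CPM in the knockout inhibitor group, 51.4, 56.4 and 60.5 CPM in the reconstituted controls and 31.2, 40.9 and 32.9 CPM in the reconstituted inhibitor group. The reconstituted inhibitor libraries were the 3 lowest of the 12, for a log2 interaction of -0.58 ± 0.15 (SE) (DESeq2 adjusted p = 0.023). The vessel receptor genes Tek and Kdr were at -1.07 ± 0.29 (SE) (DESeq2 adjusted p = 0.0274) and -0.65 ± 0.21 (SE) (DESeq2 adjusted p = 0.0489), and the transcription factor gene Erg at -0.49 ± 0.20 (SE). The list median turned to 0.03 without reconstituted control replicate 3. All 16 fibroblast and pericyte markers were negative with a median of -0.34, yet none had an unadjusted p below 0.05. Pdgfrb, the receptor of pericytes, was at -0.57 ± 0.27 (SE), and the list median was -0.10 without reconstituted inhibitor replicate 1. Of 14 mesenchymal transition genes 10 were negative, with Fn1 (fibronectin) at -0.79 ± 0.25 (SE) (DESeq2 adjusted p = 0.037) and Zeb1 at -0.48 ± 0.21 (SE) against Vim (vimentin) at 0.32 ± 0.13 (SE). The median of the mesenchymal list was -0.30, and -0.03 without reconstituted inhibitor replicate 1.

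Epithelial markers check the labelled cell type: 12 of 16 were tested, Krt18 (keratin 18) was at 1630 to 3260 CPM in every library, and Nkx2-1, Sftpc and Cldn7, of lung epithelium and tight junctions, were at 0 counts in all 12. Krt18 had a log2 interaction of 0.57 ± 0.21 (SE), Cldn4 (claudin 4) of 0.60 ± 0.22 (SE) and Elf3, an epithelial transcription factor, of 0.96 ± 0.39 (SE). Of the 12 tested, 8 were positive and 4 negative. At an unadjusted p below 0.05, 4 were positive and 0 negative, against 13.6% and 11.1% of all genes. DESeq2 called 0. The list median was 0.33, and 0.10 without reconstituted inhibitor replicate 1. With each library's trend on GC content and transcript length removed it was 0.00, Krt18 was 0.14 and Cldn4 0.29. Skeletal muscle markers had a median of 0.61 that turned to -1.60 without reconstituted inhibitor replicate 1, with summed levels of 22.7 to 528, 239 to 1030, 4.75 to 971 and 108 to 3430 CPM in the 4 groups.

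Genes of the cell cycle were mostly negative. Of 28 mitosis genes, 21 were negative with a median of -0.30, 12 were negative at an unadjusted p below 0.05 against 11.1% of all genes, and DESeq2 called 6 negative against 2.94%. Mki67, the Ki-67 antigen of dividing cells, was at 204, 200 and 205 CPM in the knockout controls, 279, 240 and 210 CPM in the knockout inhibitor group, 387, 296 and 260 CPM in the reconstituted controls and 170, 186 and 237 CPM in the reconstituted inhibitor group. Reconstituted controls were the highest group on average and lay wholly above the reconstituted inhibitor libraries, while knockout inhibitor libraries lay above their controls. The log2 interaction was -0.93 ± 0.23 (SE), from -0.67 in reconstituted and 0.26 in knockout tumours (edgeR adjusted p = 0.144, DESeq2 adjusted p = 0.0225). The spindle motor genes Kif11 and Kif20a were at -0.55 ± 0.16 (SE) (DESeq2 adjusted p = 0.0354) and -0.66 ± 0.20 (SE) (DESeq2 adjusted p = 0.0418), and Zwilch, of the kinetochore complex that serves the checkpoint, at -0.61 ± 0.17 (SE) (DESeq2 adjusted p = 0.0323). The median of the mitosis list stayed between -0.39 and -0.22 with any library left out.

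S phase genes had 16 of 21 negative with a median of -0.23, with 4 negative at an unadjusted p below 0.05 against 11.1% of all genes and 3 called negative by DESeq2 against 2.94%. The median was -0.14 without reconstituted inhibitor replicate 3. Called by DESeq2 were Rrm1 (-0.50 ± 0.13 (SE)), a ribonucleotide reductase subunit, Pola1 (-0.74 ± 0.23 (SE)), the catalytic subunit of the priming polymerase, and Ccne2 (-0.80 ± 0.27 (SE)), cyclin E2. Targets of p53 were split, 10 positive and 11 negative with a median of -0.05, though DESeq2 called 3 positive against 4.58% of all genes. Cdkn1a (p21), which halts the cell cycle, was at 51.1, 62.6 and 40.8 CPM in the knockout controls, 40.3, 52 and 45.1 CPM in the knockout inhibitor group, 41.3, 40.3 and 42.4 CPM in the reconstituted controls and 70.2, 61 and 52.3 CPM in the reconstituted inhibitor group. Its reconstituted inhibitor libraries were above the reconstituted controls without overlap, for a log2 interaction of 0.74 ± 0.22 (SE) (DESeq2 adjusted p = 0.037). The apoptosis gene Bax stood at 0.66 ± 0.19 (SE) and Phlda3, an inhibitor of AKT, at 0.49 ± 0.15 (SE), and the translesion polymerase gene Polk at -0.55 ± 0.21 (SE). With the GC and length trend removed Bax was 0.08 and Phlda3 0.02.

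Stress and sugar metabolism genes were positive nearly throughout. All 27 hypoxia and glycolysis genes were positive with a median of 0.56, 14 were positive at an unadjusted p below 0.05 against 13.6% of all genes, and DESeq2 called 9 positive against 4.58%. Slc2a1, the glucose transporter GLUT1, was at 171, 200 and 125 CPM in the knockout controls, 125, 150 and 133 CPM in the knockout inhibitor group, 91.5, 94.3 and 94.4 CPM in the reconstituted controls and 167, 120 and 132 CPM in the reconstituted inhibitor group. The reconstituted controls were the 3 lowest libraries of the 12, and knockout groups overlapped. Slc2a1 had a log2 interaction of 0.87 ± 0.23 (SE) (DESeq2 adjusted p = 0.0276). The glycolysis genes Pgk1, Aldoa and Ldha were at 0.81 ± 0.22 (SE), 0.94 ± 0.28 (SE) and 0.70 ± 0.21 (SE). Over this list the median log2 difference between genotypes was -0.42 in control tumours and 0.16 under the inhibitor.

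The integrated stress and unfolded protein response had 17 of 18 positive with a median of 0.46, 8 positive at an unadjusted p below 0.05 against 13.6% of all genes and 6 called by DESeq2 against 4.58%. Ddit3 (CHOP), a factor of lasting stress, was at 12.4, 15 and 11.2 CPM in the knockout controls, 9.04, 11.3 and 11.7 CPM in the knockout inhibitor group, 10.1, 9.58 and 11.9 CPM in the reconstituted controls and 22.3, 16.4 and 14.3 CPM in the reconstituted inhibitor group. Its reconstituted inhibitor libraries lay above the controls of that genotype without overlap, and the log2 interaction was 1.01 ± 0.26 (SE) (DESeq2 adjusted p = 0.0246). Atf4, the factor upstream of it, was at 0.75 ± 0.21 (SE), the phosphatase regulator gene Ppp1r15a at 0.53 ± 0.14 (SE) and the chaperone partner gene Sdf2l1 at 0.88 ± 0.27 (SE). Immediate early genes had 13 of 16 positive with a median of 0.44, with Zfp36, which destabilises cytokine messages, at 0.94 ± 0.22 (SE) (DESeq2 adjusted p = 0.0181), Junb at 0.73 ± 0.19 (SE) and the flow-sensitive factor gene Klf2 at 0.63 ± 0.29 (SE). The median of that list was 0.15 without reconstituted inhibitor replicate 1. Among death pathway genes 9 of 13 were positive with a median of 0.43, and 0.24 without knockout control replicate 1, with Tnfrsf1a (TNF receptor 1) at 0.62 ± 0.18 (SE) (DESeq2 adjusted p = 0.0354), Ripk3 at 0.58 ± 0.22 (SE) and the pore-forming gasdermin gene Gsdmd at 0.62 ± 0.28 (SE).

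The highest shares of small p lay in 2 lists of housekeeping machinery. All 76 ribosomal protein genes were positive with a median of 0.73, 68 at an unadjusted p below 0.05 against 13.6% of all genes, and DESeq2 called 44 against 4.58%. Of 48 nuclear genes for oxidative phosphorylation subunits, 45 were positive with a median of 0.72, 39 at an unadjusted p below 0.05, and DESeq2 called 25. Rps28, of the small ribosomal subunit, was at 308, 273 and 207 CPM in the knockout controls, 158, 228 and 233 CPM in the knockout inhibitor group, 145, 165 and 176 CPM in the reconstituted controls and 400, 304 and 210 CPM in the reconstituted inhibitor group. The reconstituted inhibitor libraries ran from within the knockout range to well above it, replicate 1 the highest of all 12 and replicate 3 below the group's other libraries. Its log2 interaction was 1.26 ± 0.32 (SE) (DESeq2 adjusted p = 0.0205). Rps27 (1.30 ± 0.34 (SE)), Rplp1 (1.27 ± 0.34 (SE)), the respiratory complex I genes Ndufa3 (1.09 ± 0.30 (SE)) and Ndufs7 (1.08 ± 0.31 (SE)) and the complex IV gene Cox7b (0.66 ± 0.17 (SE)) were alike. Ribosomal proteins took 6.031%, 5.359% and 3.926% of counts in reconstituted inhibitor replicates 1 to 3, against 3.552% to 3.869% in reconstituted controls, 3.86% to 4.722% in the knockout inhibitor group and 4.395% to 4.964% in knockout controls. Ribosomal protein genes have many processed pseudogenes that can share their reads.

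The interaction followed transcript length across genes. Among the 16733 tested genes with a GENCODE transcript (93.6%), the median interaction was 0.51 in the quintile with the shortest transcripts (54 to 1568 bases), 0.20, 0.00 and -0.13 in the next 3, and -0.33 in the longest (4977 to 123200 bases). Pearson's r between interaction and log2 length was -0.38 across genes, which are not independent replicates, and with GC content it was 0.19. The trend was that of the reconstituted tumours, whose quintiles ran from 0.42 to -0.29 against -0.09 to 0.04 in knockout tumours. In single libraries the shortest quintile lay 0.44 and 0.25 above the mean of all 12 in reconstituted inhibitor replicates 1 and 2, at -0.07 in replicate 3 and at -0.23 to -0.13 in reconstituted controls.

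With each library's trend on GC content and length removed, an alternative added after the data were seen, edgeR still called 0 genes. The ribosomal median went from 0.73 to 0.31 and that of oxidative phosphorylation from 0.72 to 0.29. The stress response median went from 0.46 to 0.17, class II presentation from 0.51 to 0.24, immediate early genes from 0.44 to 0.22 and epithelial markers from 0.33 to 0.00. Little moved in the medians of the interferon-gamma response (1.28), type I interferon-stimulated genes (0.69), chemokines (1.01), macrophage markers (0.43), hypoxia and glycolysis (0.58) and mitosis genes (-0.29). Class I presentation went from 1.03 to 0.79. Single genes differed from these medians. Isg15 went from 1.36 to 0.72, Ifitm3 from 1.37 to 0.72, Bst2 from 1.62 to 0.93 and Psme2 from 1.14 to 0.63. Trex1 went from 1.62 to 1.03, while Ifit1 (0.81 to 0.83) and Nos2 (2.18 to 2.25) hardly moved. Ier3 was then 1.09, Ntrk2 -1.81, Cst7 1.40 and Pcdhga3 -3.17, and Mki67 was -0.45. Transcripts were 995 to 4923 bases long in the 12 positive genes with the smallest p. They were 1902 to 11451 bases long in the 12 negative ones. Among these genes Bola1 went from 1.14 to 0.53, Tmem222 from 0.98 to 0.55, Slc25a32 from -0.59 to -0.27 and Pcdh17 from -1.59 to -0.99. Mafg (0.60), Rfx1 (0.52), Mak16 (-0.71) and Rtn1 (-1.43) did not move nearer to 0, and the rest of them did. Among other genes named above, Traf3 was -0.14, Rel -0.09, Ifi30 0.24, Cd74 0.29, Tigit 0.29, C1qa 0.30, Rrm1 -0.21, Zeb1 -0.21, Sdf2l1 0.35, Junb 0.34 and Klf2 0.27, each nearer to 0 than before. What sets the length trend of these libraries was not tested.

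**Figure D4:**
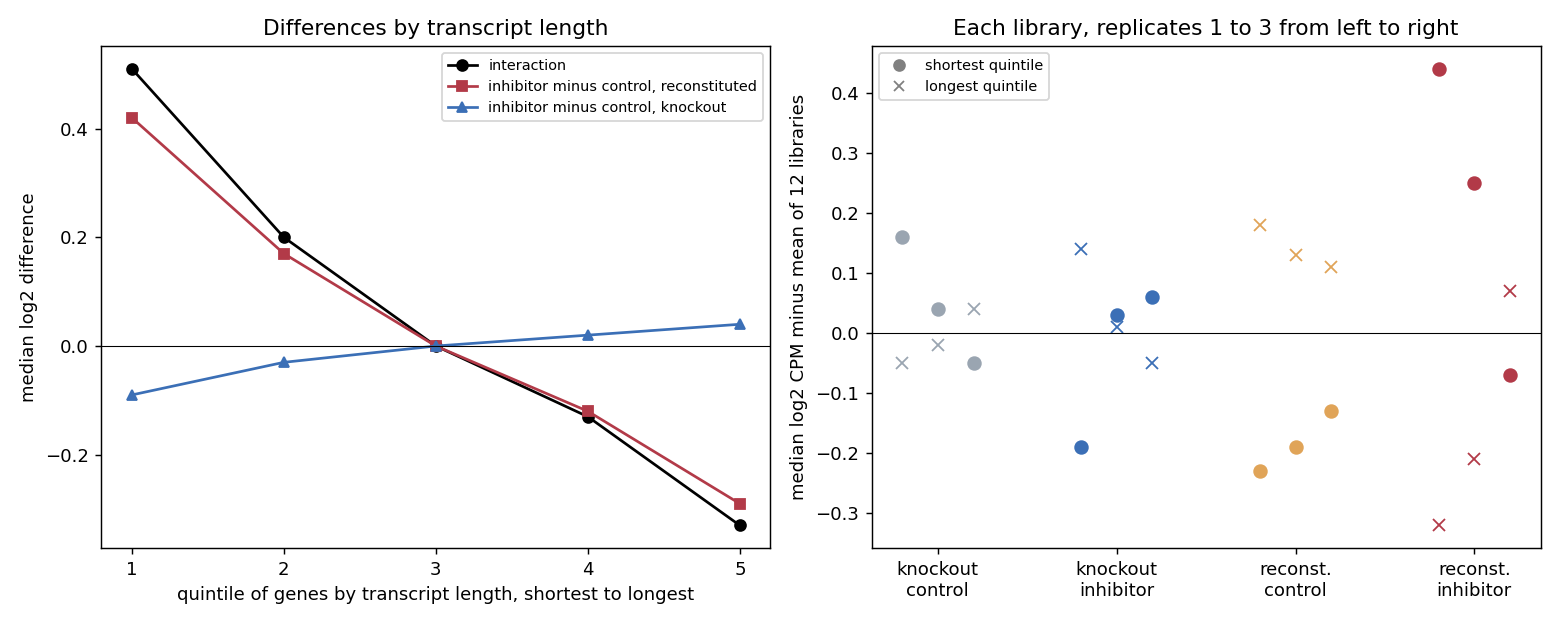
Left, the median log2 difference over each quintile of genes by transcript length, for the interaction and for the inhibitor effect in each genotype. Right, for each library, the median log2 CPM of the shortest (circles) and longest (crosses) quintile minus the mean of the 12 libraries; reconstituted inhibitor replicates 1 and 2 show the widest gap, 0.44 and 0.25 against -0.32 and -0.21.

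The lists differed in how far a single library set their medians. With each library left out in turn, the median ran from 0.42 to 0.66 for hypoxia and glycolysis, from 0.55 to 0.92 for ribosomal proteins and from 0.54 to 0.85 for oxidative phosphorylation. The interferon lists had their extremes without knockout control replicate 1 and without reconstituted control replicate 3. In the former Isg15 was at 20.1 CPM against 6.59 and 9.17 in its group, and in the latter at 63.9 CPM against 38.2 and 23.3. With the lowest and the highest library on the first component left out (reconstituted inhibitor replicate 1 and reconstituted control replicate 2), an alternative added after the data were seen, medians were 0.67 for the interferon-gamma response, 0.64 for class I presentation, 0.23 for type I interferon-stimulated genes, 0.89 for chemokines, 0.51 for macrophage markers, -0.31 for mitosis genes and 0.54 for ribosomal proteins.

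**Figure D5:**
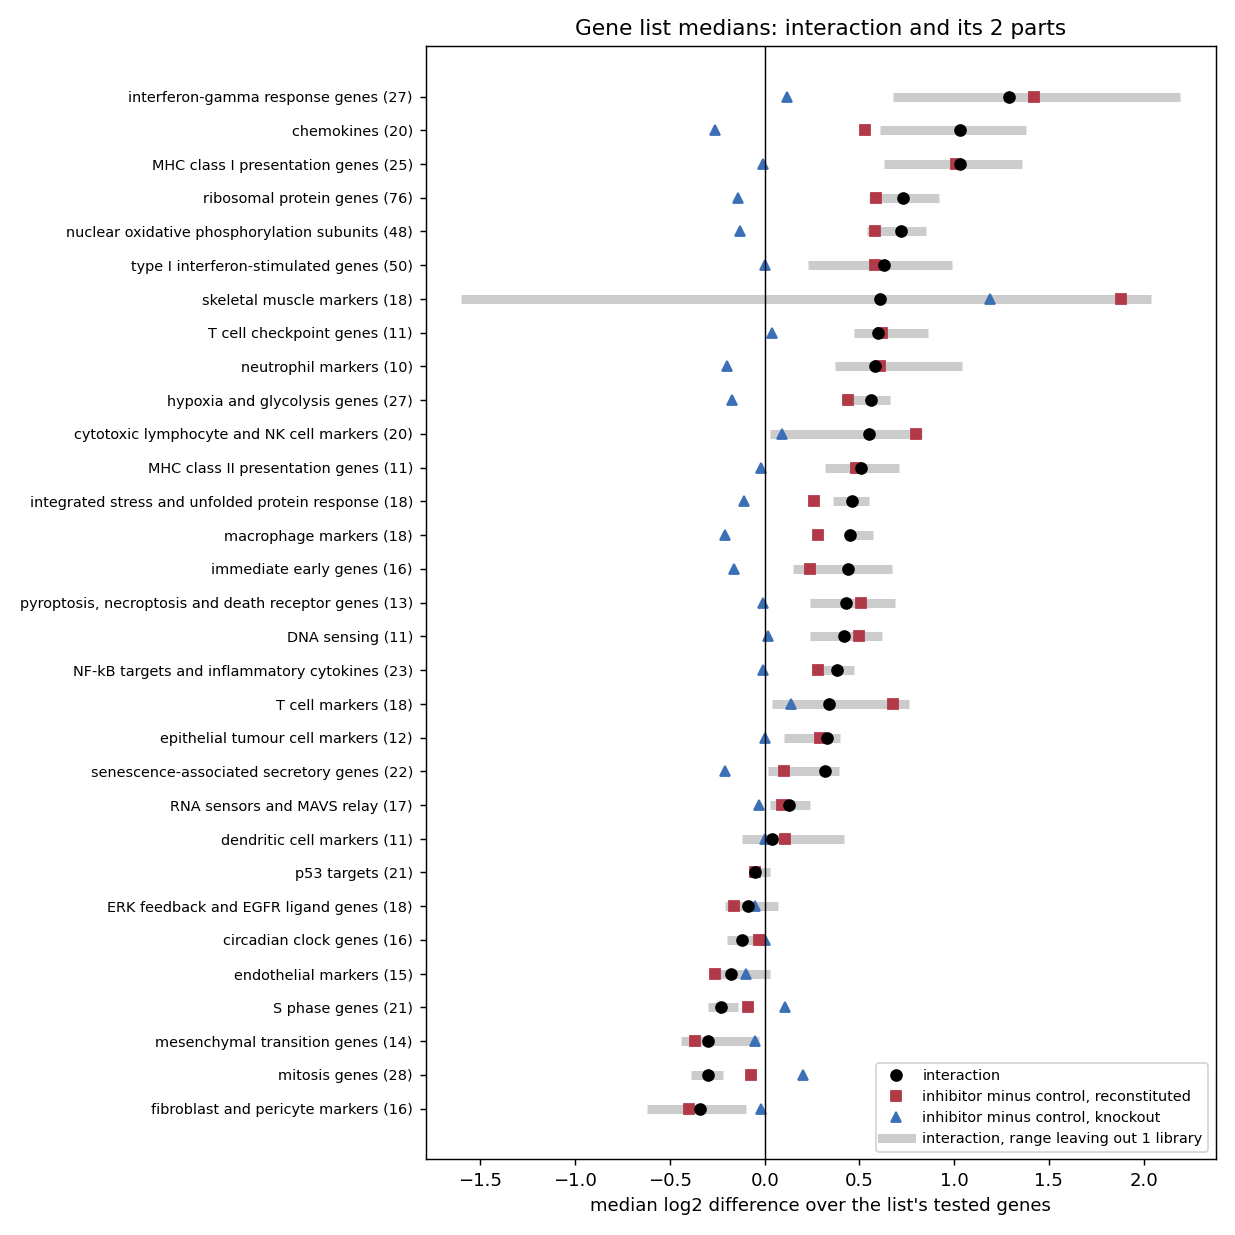
Median log2 difference over the tested genes of each list with 10 or more (number in brackets): interaction (black circles), inhibitor minus control in reconstituted (red squares) and knockout tumours (blue triangles). Grey bars span the interaction median with each of the 12 libraries left out in turn, from 0.68 to 2.19 for the interferon-gamma response and from -1.60 to 2.04 for skeletal muscle.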

How the data were processed

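RNA was sequenced from 12 tumour samples, in 4 groups of 3 taken from the sample labels. Extraction used a spin column with DNase treatment and the library kit was a stranded mRNA one, per the labels' protocols. The authors deposited integer counts per gene and library, and the values show no sign of normalization. Trimmomatic, HISAT2, StringTie and the build GRCm38 (mm10) are listed in the submitters' processing notes. The notes give no version or role, and whether counting used strand or how shared reads were split is not given in these sources.

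All libraries entered 1 edgeR 4.0.16 fit of 4 group means without covariates (R 4.3.3, filterByExpr, TMM, quasi-likelihood F-test, 8 residual degrees of freedom). Benjamini-Hochberg adjustment ran over all genes, with calls at 0.05. Library totals, 52983715 to 69108411 counts, put 3 counts at 0.04341 to 0.05662 CPM. DESeq2 1.42.0, limma-voom (limma 3.58.1), other scalings and filters, a replicate block and leaving out each library were alternatives. DESeq2 gave an adjusted p of the interaction for 13717 of 17872 genes, and the others count as not called. The shares of 4.58% and 2.94% are of all 17885 genes tested, so they are lower than shares of the 13717. The edgeR fit of 12933 genes at a mean log2 CPM of at least 1 had 2235 positive at an unadjusted p below 0.05. It had 1704 negative ones.

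The 36 lists (722 genes) were described by counts and medians, with no test. Genes of a list share the same libraries and are not independent replicates. Named genes were 12 fixed ones (Mavs first), the 12 of either sign with the smallest p and a mean log2 CPM of at least 1 (no predicted genes), and up to 4 per list with the smallest p. The comparison and lists were chosen with earlier results of these data known. Transcript lengths and GC content came from the longest GENCODE transcript, positions and promoters from RefSeq (GRCm38.p6).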

Additional observations from a re-analysis of the deposited data

How the results depend on the processing

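The count of called interaction genes was 0 with edgeR under the other scalings, filters, robust dispersion and both alternatives added after the data were seen, and 0 with limma-voom. DESeq2 called 1345 genes, 1242 of which (92.3%) were among the 4005 that edgeR called without reconstituted inhibitor replicate 3, where they made up 31%. With each library left out the count ran from 0 to 4005. The inhibitor effect in reconstituted tumours gave 3621 genes with DESeq2 and 0 to 5683 with each library left out. In knockout tumours it gave 3 with DESeq2, 1 with limma-voom and 0 with any library left out. The comparison of genotypes gave 827 genes in control tumours and 1226 under the inhibitor with DESeq2, 15 and 43 with a replicate block, and 54 and 175 with the GC and length correction, against 25 and 116. In control tumours limma-voom gave 15 and library totals 41. With each library left out these comparisons gave 0 to 80 and 0 to 2816. Why DESeq2 and the fit without that library gave more calls was not tested.

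A replicate block on the numbers in the titles also gave 0 calls for the interaction and both inhibitor effects, with a smallest adjusted p of 0.0819 for the interaction. Same-numbered libraries correlated at -0.11 to 0.31, 8 of 18 pairs above 0.1, and 6 of 12 libraries correlated best with their own number. Whether the numbers pair the samples was not settled by these values, and the main fit did not use them.

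Scaling by library totals moved the median interaction of all genes from 0.00459 to -0.0826 and the positive share from 50.3% to 44.2%. Of the genes named, Cd8a (-1.25 to 0.83 with each library left out) changed sign. It was 0.06 without knockout inhibitor replicate 1 and 0.83 without reconstituted control replicate 3. Apart from Enpp1, which was 0.04 with the GC and length trend removed, no other gene named changed sign under these alternatives. Depth left Ifnb1, with 0 to 3 counts per library, outside the test.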

Other observations

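Genes outside the groups described above included metallothionein Mt1, which binds metals and answers glucocorticoids, at a log2 interaction of 1.69 (edgeR adjusted p = 0.149). Bhlhe40, a repressor tied to the clock and to hypoxia, was at 0.67 (DESeq2 adjusted p = 0.0348) and the clock gene Per1 at -0.60. Per1 was at 40.3, 44.4 and 63.7 CPM in knockout controls and 67.8, 69.9 and 66.7 CPM in the knockout inhibitor group, and at 108, 134 and 131 CPM against 96.7, 112 and 130 CPM in reconstituted tumours. Knockout groups did not overlap and reconstituted groups did. The ERK feedback genes Dusp6 (0.55) and Etv4 (0.41) were called positive by DESeq2, while the list had 7 of 18 positive and a median of -0.09 (0.07 without reconstituted control replicate 1).

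Further lists gave median interactions that moved by over 1.5 times, or turned, with 1 library left out. Neutrophil markers stood at 0.58 with 8 of 10 positive (1.04 without reconstituted control replicate 3) and dendritic cell markers at 0.04 with 6 of 11 (-0.12 without knockout inhibitor replicate 2). Senescence-associated secretory genes stood at 0.32 with 15 of 22 positive (0.02 without knockout control replicate 2). Circadian clock genes stood at -0.12 with 6 of 16 positive (-0.01 without reconstituted control replicate 3), and glucocorticoid-induced and metallothionein genes at 0.00 with 5 of 9 (0.18 without reconstituted inhibitor replicate 2). Few members of the remaining marker lists were tested. The median over 5 B cell and plasma cell markers was 0.66, and 0.09 without knockout inhibitor replicate 1. Over 5 red blood cell markers it was 0.51, and -0.01 without knockout control replicate 3. Over 5 keratinocyte markers it was 0.21, and -0.14 without reconstituted inhibitor replicate 3, and over 2 adipocyte markers -0.26, and 0.10 without that same library.

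The gene called without reconstituted control replicate 3 was Gm14230, a long noncoding RNA at chromosome 2, 156830706 to 156838089 on GRCm38.p6, named after its values were seen. It had 0 counts in reconstituted control replicates 1 and 2 and 2679 to 3818 in the other 10 libraries. LOC115486128, a protein-coding gene model with the same start and an end at 156841248, had 4375 and 5487 counts in those same libraries and 288 to 946 in the other 10. The sum of both gene models ran from 2967 to 5487 counts over the 12 libraries. The counts thus moved from one overlapping model to the other in 2 libraries, and the value of either gene alone is uncertain.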
